A study of Rattus norvegicus with 31 samples.

Results

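Nicotinic acetylcholine receptor subunit genes were the 9 genes Chrna2, Chrna3, Chrna4, Chrna5, Chrna7, Chrnb1, Chrnb2, Chrnb4 and Chrne, taken by symbol from the 26312 genes of the deposited count table. All 9 had a row in that table. The second deposited table, which holds 19904 genes with at least 2 counts in all, listed 8 of them and did not list Chrnb4.

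Nicotinic receptors are ion channels of the cell membrane that open when acetylcholine binds, and each is built from 5 subunits around a central pore. Muscle receptors at the neuromuscular junction hold the subunits encoded by Chrna1, Chrnb1, Chrnd and Chrne (in adults) or Chrng (in embryos), while neurons and autonomic ganglia use the alpha and beta subunits encoded by the other genes. Neonicotinoids act as agonists on the nicotinic receptors of insects, and the mammalian subunits are relatives of that target. Liver parenchyma is not a classical site of these receptors. Which subunit transcripts could be counted at all is therefore described first.

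RNA-Seq was run on the livers of 31 young adult female Wistar (Crl:WI) rats, 1 library per rat, after 28 days of daily gavage. The vehicle in every group was 0.5% carboxymethyl-cellulose in water, which 8 Control rats received alone. Thiacloprid (THI, a neonicotinoid with a cyano group) was given at 108 mg/kg bw/day to 4 rats. Imazalil (IMZ, an azole fungicide) was given at 93 mg/kg bw/day to 4 rats. Clothianidin (CTD, a neonicotinoid with a nitro group) was given at 288 mg/kg bw/day, and 3 rats of that group were sequenced. The paper marks this clothianidin group as having lost animals, which were killed when moribund. The sequenced CTD rats were therefore the survivors of their group. The mixtures were given to 4 rats each, with 54 and 46 mg/kg bw/day in THI + IMZ, 54 and 134 mg/kg bw/day in THI + CTD, and 46 and 135 mg/kg bw/day in IMZ + CTD. The doses of THI and CTD alone differed, so their values are given side by side and were not tested against each other.

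The depth differed between groups: the median library of a control rat held 60.4755 M counts, against 40.217 M for a treated rat, and the extremes were 31.82 M and 101.23 M. A gene at 0 counts in a library could have had up to 3 counts, which is 0.0296 to 0.0943 CPM by library (CPM, the count per 1000000 counts of the library), an upper limit for counting error only. The tissue label was checked on 6 hepatocyte markers, and 6 of 6 were counted in every library with a summed level of 155136 to 243724 CPM. Markers of skeletal muscle and of nerve were counted at low levels, and some of them in every library. The 6 muscle markers found in the table summed to 0.0603 to 0.984 CPM, with a median count of 0 for Ckm, Myh4 and Myog and of 5 for Tnnt3, which was counted in 31 of 31 libraries. Of the neuronal markers, Snap25, Th and Dbh had a median count of 0, while Syp (median 8) was counted in 31 of 31 libraries and Tubb3 (median 10) in 30.

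The sequences just before the annotated gene starts of Chrne, Chrnb1 and Chrna5 are shown because these were the only members counted in every library. The letters are the 250 bases before the start in RefSeq, rat build GRCr8, read 5′ to 3′ on the strand of the gene; the counts themselves were made on Rnor_5.0. Capitals mark matches, on either strand, to the N-box CCGGAA (a site of ETS-family factors known from synaptic muscle genes) and to the E-box CANNTG (a site of the myogenic helix-loop-helix factors).
Chrne, chr10:55834155-55834404, minus strand: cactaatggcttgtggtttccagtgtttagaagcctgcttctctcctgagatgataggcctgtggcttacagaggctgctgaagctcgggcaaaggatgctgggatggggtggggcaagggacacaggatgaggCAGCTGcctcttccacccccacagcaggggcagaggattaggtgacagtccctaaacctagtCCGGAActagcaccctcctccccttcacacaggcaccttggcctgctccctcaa
Chrnb1, chr10:55015108-55015357, minus strand: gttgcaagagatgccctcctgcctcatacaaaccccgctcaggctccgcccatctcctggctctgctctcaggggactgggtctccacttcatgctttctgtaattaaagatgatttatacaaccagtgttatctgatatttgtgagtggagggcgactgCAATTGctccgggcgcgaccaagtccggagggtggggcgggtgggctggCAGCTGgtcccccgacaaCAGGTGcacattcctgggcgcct
Chrna5, chr8:64265629-64265878, plus strand: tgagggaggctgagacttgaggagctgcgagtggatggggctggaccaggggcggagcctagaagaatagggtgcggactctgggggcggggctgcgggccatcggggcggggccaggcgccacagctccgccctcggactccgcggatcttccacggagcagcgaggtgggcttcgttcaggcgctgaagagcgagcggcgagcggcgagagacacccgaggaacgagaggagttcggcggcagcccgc

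Promoter windows were found for 8 of the 9 members, Chrna2 being the one not matched. The N-box was found in the Chrne window alone among these 8, 54 to 49 bases before the start, and in 12.6% of 33469 rat promoter windows of the same length. One E-box, CAGCTG, lay in the Chrne window 116 to 111 bases before the start. The Chrnb1 window held 3 E-boxes, 90 to 85, 41 to 36 and 23 to 18 bases before the start, whereas the Chrna5 window held none. E-boxes were present in 65.5% of all windows. The GC-box CCGCCC, a site of SP-family factors, was found in 7 of the 8 member windows on either strand, against 30.5% of all windows, and Chrne was the member without one. G and C made up 57.6% to 74.4% of the member windows, against a median of 51.2% over all windows. The part of this composition in the GC-box matches was not tested. No N-box overlapped an E-box or GC-box in these windows. CpG pairs numbered 2 in the Chrne window, 10 in that of Chrnb1 and 26 in that of Chrna5, with a median of 5 over all windows. Such matches describe the letters and do not show that a factor binds.

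Of the 9 members, 3 were counted in every library. They were Chrne (epsilon, the adult muscle subunit), Chrnb1 (beta 1, shared by embryonic and adult muscle receptors) and Chrna5 (alpha 5, an accessory subunit that needs other subunits to form a channel). Among all genes of the table, 13011 (49.4%) were counted in every library. A median count of at least 10 was reached by 2 of 9 members, against 49.3% of all genes, and 5 of 9 members had a median count of 0, against 41.2% of all genes.

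Chrne gave 4096 counts in all libraries together, with 41 to 382 per library and a median of 119. Chrnb1 gave 2235 counts, with 22 to 189 per library and a median of 71. Chrna5 was sparse, with 329 counts, 1 to 30 per library and a median of 8, and reached 10 counts in 12 of 31 libraries. These 3 genes therefore differed widely in how precisely their level could be compared between rats. Counts of different genes were not compared as levels, because transcript lengths were not used here.

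Chrna2 (alpha 2, a neuronal subunit that binds acetylcholine) gave 57 counts and was seen in 20 of 31 libraries. When all libraries were thinned to 31.8 M counts, it was seen in 16. The controls held 3, 7, 0, 1, 0, 1, 2 and 2 counts of Chrna2 in replicates 1 to 8. The THI + CTD rats held 3, 4, 8 and 2 counts, and this was the one group in which every rat had a count. In the other groups Chrna2 was at 0 in at least 1 rat, and 1 of 4 THI rats had a count.

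The remaining neuronal subunits were close to or below the limit of detection. Chrna4 and Chrnb2, which together form the most common high-affinity receptor of the brain, gave 12 counts in 5 libraries and 10 counts in 7 libraries. Of the Chrna4 counts, 5 came from CTD replicate 2 and 5 from THI replicates 2 and 3. Chrna7, whose product forms channels from 1 kind of subunit alone and is known from neurons and immune cells, gave 10 counts in 6 libraries, never more than 3 in any. Chrna3 and Chrnb4, the main pair of autonomic ganglia, lie beside Chrna5 on chromosome 8 in RefSeq GRCr8. Chrna3 gave 3 counts, all in Control replicate 1, the deepest library. Chrnb4 was at 0 in all 31 libraries, which allows up to 3 of the 1414853118 counts of the series. No treated rat had a count of either gene.

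**Figure D1:**
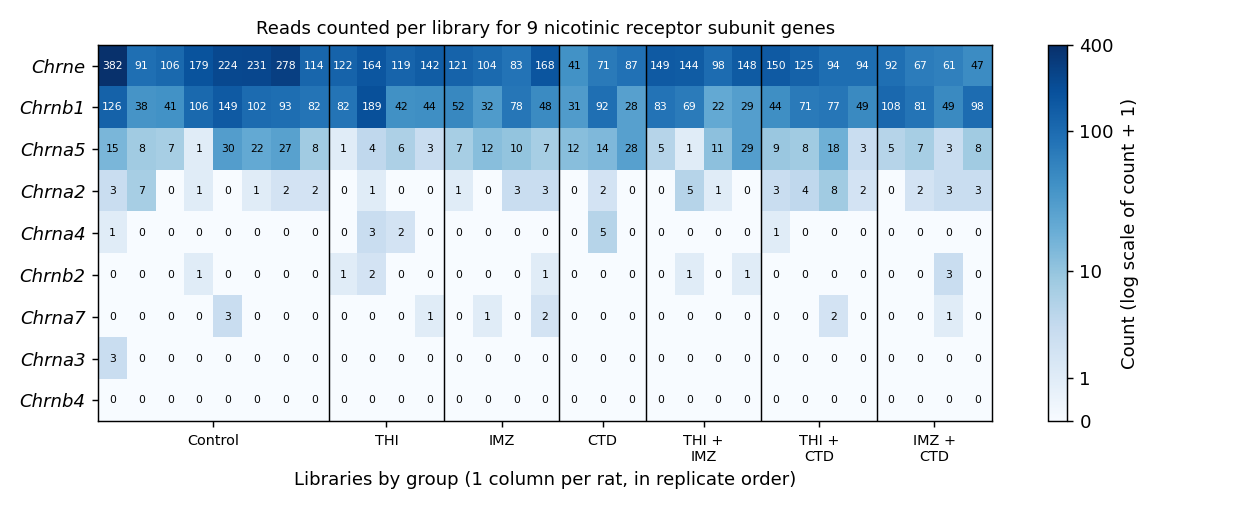
Heat map of the number of reads counted for each of the 9 genes (rows) in each of the 31 libraries (columns, by group and replicate), coloured on a log scale of count + 1 with the count written in each cell. Chrne, Chrnb1 and Chrna5 had at least 1 count in every library, and Chrnb4 had none.

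The other genes of the nicotinic family were checked in the same way. Chrna1, Chrna6, Chrna9, Chrna10, Chrnb3, Chrnd and Chrng all had a median count of 0, and Chrnd, the delta subunit of muscle, was never counted. Chrna1, the acetylcholine-binding alpha subunit of muscle receptors, gave 5 counts in 2 libraries. The liver libraries thus held reads of 2 muscle subunit genes in every rat, with next to none for the alpha and delta subunits that complete the receptor.

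To ask whether the pesticides changed these transcripts, each treatment was compared with Control across 19904 genes by the quasi-likelihood test of edgeR, with Benjamini-Hochberg adjusted p under 0.05 as the threshold. The test covered 8 of the 9 members, Chrnb4 being left out for its lack of counts. Fold changes are given below for Chrne and Chrnb1, whose median count was at least 10.

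With CTD alone 1 of 8 members passed the threshold, Chrne, which was lower than in Control. Over all genes 12.7% passed the threshold with CTD, in either direction, and 6.03% were lower. One of 8 members is close to the share of all genes. At an unadjusted p under 0.05 there were 2 members, Chrne and Chrna4, and 25.2% of all genes.

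Chrne stood at 3.68, 2.74, 2.48, 2.76, 2.73, 3.49, 5.10 and 3.09 CPM in Control replicates 1 to 8. The 3 CTD rats had 1.07, 1.83 and 2.68 CPM. Rats 1 and 2 of this group lay below every control, and rat 3 lay within the control range. The group means were 3.26 ± 0.849 CPM (SD, n = 8) and 1.86 ± 0.805 CPM (SD, n = 3). On the log2 scale Chrne fell by 0.82 (SE 0.25, edgeR adjusted p = 0.0252), with a 95% interval from -1.31 to -0.33. An exact two-sided permutation test of the mean CPM over 165 regroupings gave p = 0.0242, where the smallest possible value was 0.00606. This test was run 12 times, for Chrne and Chrnb1 in each comparison with Control, and its p was not adjusted for that number. The permutation tests whose results are not printed in this report had p from 0.230 to 0.992. In bulk liver, fewer cells of a type and less RNA per cell cannot be told apart. The CTD rats were the survivors of a group with moribund animals. The part of general toxicity or of survival in the lower Chrne level was not tested.

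The call depended on single rats. Without CTD replicate 1 the log2-fold change was -0.54 (edgeR adjusted p = 0.235), and without CTD replicate 2 it was -0.82 (edgeR adjusted p = 0.0868). It was -1.17 without CTD replicate 3 (edgeR adjusted p = 0.00589). The model took the spread from all 7 groups, and a fit to the CTD and Control rats alone gave an edgeR adjusted p of 0.0668.

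Mink1, a kinase gene, is the neighbour of Chrne in RefSeq GRCr8, on the opposite strand and with the ends of both genes facing each other. Mink1 fell with CTD by 0.38 on the log2 scale (SE 0.07, edgeR adjusted p = 0.000544), from 76.7 ± 5.45 CPM (SD, n = 8) to 58.8 ± 0.979 CPM (SD, n = 3). All 3 CTD rats, at 58.0 to 59.9 CPM, lay below the lowest control at 69.5 CPM. The library kit keeps the strand, but the strand setting of the counting is not given in the sources used here, so the share of Chrne counts that came from Mink1 transcripts was not tested. Gp1ba, a platelet gene that overlaps Chrne in that annotation, had 15 counts in all libraries together. The skeletal muscle markers summed to 0.0780 to 0.215 CPM in the CTD rats and 0.0603 to 0.984 CPM in the controls, and none of the 6 passed the threshold. Markers of some other cell type lists also passed with CTD, where 12.7% of all genes did. Tat was the 1 of 6 for hepatocytes, Cd68 the 1 of 6 for Kupffer cells, Reln the 1 of 6 for stellate cells, Kdr the 1 of 5 for sinusoidal endothelium and Cpa1 the 1 of 4 for pancreas, all lower. Smooth muscle had 2 of 4, Tagln higher and Myh11 lower. No marker passed with CTD for nerve and Schwann cells (0 of 10), T and NK cells (0 of 7) or bile duct cells (0 of 5). The same held for adrenal tissue (0 of 4) and for B and plasma cells (0 of 3). The part of any of these cell types in the lower Chrne level was not tested.

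**Figure D2:**
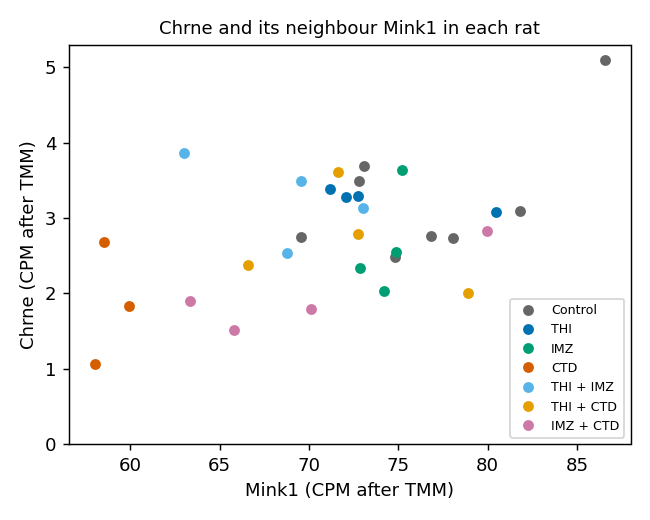
Scatter plot of Chrne against Mink1 in each of the 31 rats, both in CPM after TMM normalization, coloured by group. The 3 CTD rats have the lowest Mink1 levels, at 58.0 to 59.9 CPM, while their Chrne levels run from 1.07 to 2.68 CPM.

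With IMZ + CTD, 0 of 8 members passed the threshold, against 1.46% of all genes. Chrne had 2.83, 1.90, 1.79 and 1.51 CPM in these 4 rats, of which 3 were below every control. Its log2-fold change was -0.70 (SE 0.22, edgeR adjusted p = 0.116). The unadjusted p was 0.00338, and the exact permutation test over 495 regroupings gave p = 0.0222. DESeq2 called Chrne in this comparison (adjusted p = 0.0423), as did edgeR without IMZ + CTD replicate 1 (log2-fold change -0.91, adjusted p = 0.0422). At an unadjusted p under 0.05 there were 3 members, Chrne, Chrnb1 and Chrnb2 (the last on 3 counts in 1 rat), and 12.8% of all genes.

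THI + CTD, which held 134 mg/kg bw/day of CTD beside THI, gave 0 of 8 members past the threshold, against 4.39% of all genes, and 0 with DESeq2. At an unadjusted p under 0.05 there were 0 members and 17.6% of all genes. Chrne had 3.61, 2.79, 2.00 and 2.38 CPM in these rats, and 2 of the 4 lay below every control. The log2-fold change was -0.28 (SE 0.21, edgeR adjusted p = 0.519).

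With THI alone 0 of 8 members passed the threshold, against 0.543% of all genes, and DESeq2 likewise called 0. At an unadjusted p under 0.05 there were 2, Chrna4 and Chrna5, both on low counts, and 8.68% of all genes. Chrne was nearly constant in the THI rats, at 3.29, 3.08, 3.28 and 3.38 CPM, all within the control range. Its log2-fold change of -0.01 (SE 0.21, edgeR adjusted p = 1) had a 95% interval from -0.41 to 0.40.

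IMZ alone also gave 0 of 8 members, against 0.251% of all genes, and 0 with DESeq2, with 0 at an unadjusted p under 0.05 (8.08% of all genes). Chrne was at 2.33, 2.55, 2.04 and 3.63 CPM, and 2 of these rats were below every control, with a log2-fold change of -0.31 (SE 0.21, edgeR adjusted p = 0.749). In THI + IMZ, where 1.18% of all genes passed, the count of members was again 0, also with DESeq2, with 0 at an unadjusted p under 0.05 (11.1% of all genes). Chrne there had 3.49, 3.87, 2.54 and 3.13 CPM, all within the control range.

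In order of mean level, Chrne ran from Control, THI and THI + IMZ (3.26 CPM each) through THI + CTD (2.70), IMZ (2.64) and IMZ + CTD (2.01) to CTD (1.86 CPM). The ranges of the rats overlapped between all neighbours in this order. The 6 treatments share the same controls, so their fold changes are not independent of each other.

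**Figure D3:**
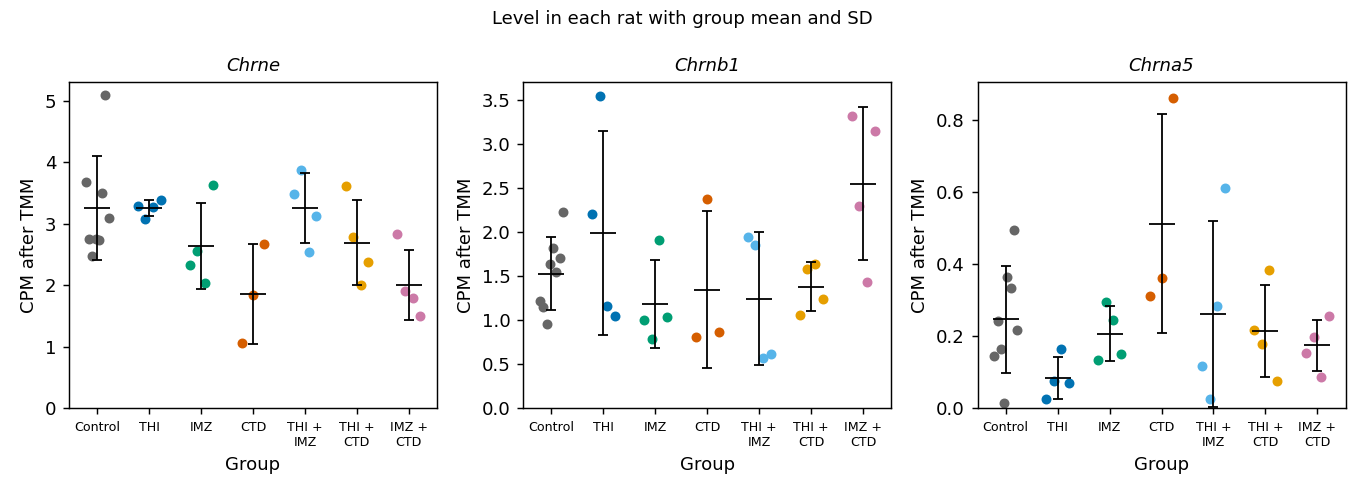
Level of Chrne, Chrnb1 and Chrna5 in each rat (points, CPM after TMM normalization) by group, with the group mean (bar) and SD (whiskers); the 3 panels have different scales. Chrne is lowest in the CTD rats at 1.86 CPM on average, Chrnb1 is highest in the IMZ + CTD rats at 2.55 CPM, and Chrna5 is highest in the CTD rats at 0.512 CPM.

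Chrnb1 passed the threshold in none of the 6 comparisons. The controls ran from 0.959 to 2.23 CPM, with a mean of 1.53 ± 0.410 CPM (SD, n = 8). The IMZ + CTD rats had 3.32, 2.30, 1.44 and 3.15 CPM, and 3 of the 4 were above every control. The log2-fold change was 0.73 (SE 0.34, edgeR adjusted p = 0.358, unadjusted p = 0.0393), and the exact permutation test gave p = 0.0202. This was the opposite sign to Chrne in the same 4 rats.

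The other groups were spread around the controls. The THI rats ran from 1.05 to 3.55 CPM, and the CTD rats had 0.806, 2.38 and 0.861 CPM, with 2 below and 1 above every control. The log2-fold changes were 0.39 with THI (SE 0.34, edgeR adjusted p = 0.751), -0.37 with IMZ (SE 0.36, edgeR adjusted p = 0.798) and -0.18 with CTD (SE 0.40, edgeR adjusted p = 0.818). For THI + IMZ it was -0.30 (SE 0.36, edgeR adjusted p = 0.793) and for THI + CTD -0.15 (SE 0.35, edgeR adjusted p = 0.871). The 95% intervals of these 5 comparisons reached from -1.08 to 1.06, so smaller changes could not be resolved with these rats. Zbtb4, a transcription factor gene that overlaps the end of Chrnb1 on the opposite strand in RefSeq GRCr8, passed the threshold in no comparison.

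**Figure D4:**
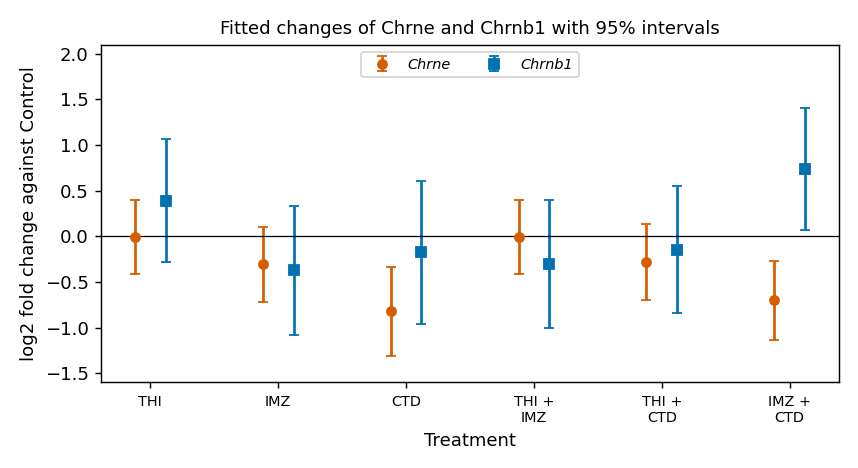
Log2 fold change of Chrne (circles) and Chrnb1 (squares) against Control for each treatment, with 95% intervals. The intervals of Chrne lie below 0 with CTD and IMZ + CTD, and that of Chrnb1 lies above 0 with IMZ + CTD, of which only Chrne with CTD passed the threshold after adjustment.

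Chrna5 had 15, 8, 7, 1, 30, 22, 27 and 8 counts in Control replicates 1 to 8, a mean of 0.247 ± 0.149 CPM (SD, n = 8). The CTD rats had 12, 14 and 28 counts, or 0.512 ± 0.304 CPM (SD, n = 3), all above the control median. The THI rats had 1, 4, 6 and 3 counts, or 0.0847 ± 0.0581 CPM (SD, n = 4), all below it. No treated group was apart from the controls, whose range of 0.0154 to 0.495 CPM overlapped each of them, and Chrna5 passed the threshold in none of the 6 comparisons. The remaining groups lay between 0.174 CPM in IMZ + CTD and 0.260 CPM in THI + IMZ.

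Whether the mixtures departed from additivity was asked by setting each mixture's log2-fold change against the sum of those of its compounds, weighted by dose (0.5 for THI and IMZ, 0.47 for CTD). No member of the 8 was off the sum in THI + IMZ (0.0151% of all genes), in THI + CTD (0.286%) or in IMZ + CTD (1.16%), by edgeR or by DESeq2. At an unadjusted p under 0.05 there were 0, 1 (Chrna2) and 1 (Chrnb1) members, against 6.46%, 9.66% and 14.3% of all genes. Chrna3 in every mixture, Chrna4 in THI + IMZ and IMZ + CTD, and Chrnb2 in THI + CTD had too few counts to estimate a departure. The lack of calls therefore says nothing about additivity for these members there. The remaining estimates for Chrna2, Chrna4, Chrna7 and Chrnb2 also rested on few counts, with SE of up to 1.45 on the log2 scale. A departure could hardly have been called for them either. Chrnb1 in IMZ + CTD lay 1.00 above the sum on the log2 scale (SE 0.35, edgeR adjusted p = 0.164, unadjusted p = 0.0076). Chrne lay 0.15 above the sum in THI + IMZ, 0.11 above it in THI + CTD and at -0.16 from it in IMZ + CTD, with SE of 0.21 to 0.22.

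Proteins that assemble or anchor nicotinic receptors, or bind to them, formed a list of 16 genes, of which 15 were in the table and 14 were tested. The 5 with a median count of at least 10 were Ric3 (a chaperone of receptor assembly), Lynx1 and Ly6e (membrane-anchored relatives of snake toxins), Agrn (agrin, the nerve signal that clusters muscle receptors) and Lrp4 (its receptor). Agrn fell with CTD by 0.34 on the log2 scale (SE 0.10, edgeR adjusted p = 0.0247), from 37.1 ± 3.74 CPM (SD, n = 8) to 29.3 ± 4.47 CPM (SD, n = 3). The 3 CTD rats ran from 25.6 to 34.3 CPM and the controls from 29.9 to 40.7 CPM, so the ranges overlapped only in part. Agrn was the only gene of the list past the threshold in any comparison, 1 of 14 tested with CTD, against 12.7% of all genes. Musk and Rapsn, which complete the agrin pathway in muscle, had median counts of 5 and 2.

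Of 8 genes for the synthesis, transport and breakdown of acetylcholine, 7 were in the table and 4 were counted in every library. Chat, the enzyme that makes acetylcholine, gave 1 count in all 31 libraries. Bche, the cholinesterase that the liver secretes to plasma, fell with THI + CTD by 0.78 on the log2 scale (SE 0.20, edgeR adjusted p = 0.0190), from 27.6 ± 4.36 CPM (SD, n = 8) to 16.03 ± 2.02 CPM (SD, n = 4). All 4 of these rats, at 14.02 to 18.55 CPM, lay below the lowest control at 18.97 CPM. Slc44a1, a choline transporter that many tissues use, fell with CTD by 0.37 (SE 0.12, edgeR adjusted p = 0.0435), from 22.5 ± 2.20 CPM (SD, n = 8) to 17.4 ± 1.03 CPM (SD, n = 3). Bche was the 1 of 6 genes tested that passed with THI + CTD, against 4.39% of all genes. Slc44a1 was the 1 of 6 with CTD, against 12.7% of all genes. Ache and its membrane anchor Prima1 were counted in every library, and neither passed the threshold. Of the muscarinic receptors, which share the ligand but signal through G proteins, Chrm3 alone had a median count above 0, at 3. Of these receptors, 0 of the 4 tested passed in any of the 6 comparisons, but at such counts a change could hardly have been called.

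The genes whose log2 CPM most resembled that of Chrne over the 31 rats, among 10969 candidates, were Polrmt (r = 0.77, and 0.64 after the group means were removed), Chrd (0.74 and 0.58) and Gpt (0.74 and 0.52). For Chrnb1 they were Cxcl14 (r = 0.61 and 0.62), Trpm2 (0.60 and 0.59) and Nedd9 (0.59 and 0.53). The rats share treatments and library depth, so these values are descriptions. Mink1 ranked 292nd for Chrne, with r = 0.52 and 0.25 within groups. Zbtb4 ranked 48th for Chrnb1, with r = 0.47 and 0.34 within groups. Chrne and Chrnb1, 2 subunits of the same adult muscle receptor, had r = -0.02 with each other, and 0.12 within groups.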

How the data were processed

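Liver RNA of 31 rats was sequenced with a stranded total RNA kit as paired-end reads. The authors trimmed adapters with Skewer, used STAR 2.5.2b to map to Rnor_5.0 and to obtain gene counts, and the submitters' processing notes also name FastQC 0.11.5 and DESeq2 1.15.1. The deposited count table holds raw counts of 26312 genes. The other deposited table gives a signal (counts over DESeq2 size factors, 19904 genes), used only to check the counts. Groups and replicate numbers come from the sample labels.

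The filter required 2 or more counts over all libraries, which left 19904 genes. edgeR 4.0.16 in R 4.3.3 fitted 1 mean per group to all 31 libraries after TMM normalization (quasi-likelihood, two-sided, Benjamini-Hochberg over all genes, threshold 0.05). The SE is the log2 fold change over the square root of the F statistic. CPM are counts over the TMM library size, and log2 CPM used a prior count of 2. Alternatives were DESeq2 1.42.0 (Wald test and size factors), other filters, thinning to 31.8 M counts, a replicate block and leaving out each rat. The fit was tested on simulated data. With totals of 31.82 M to 101.23 M counts, only Chrne and Chrnb1 had a median count of at least 10, the rule for giving fold changes. All members were named. From the other lists, genes past the threshold were named, and the 3 most alike genes by Pearson r. Other genes are named for their counts, or as neighbours of Chrne and Chrnb1 chosen after the files were seen.

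The members and lists were chosen with earlier results of these data known. All pairs of replicates differed beyond sampling noise. Promoter sequences are from RefSeq (GRCr8), while gene positions on Rnor_5.0 were not used here. The summed level of the nerve marker list is not reported here.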

Additional observations from a re-analysis of the deposited data

Results flagged for a closer look

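Chrne in Control replicate 7 stood at 5.10 CPM, apart from the other 7 controls at 2.48 to 3.68 CPM. Its gap to the nearest control exceeded Dixon's 95% critical value for 8 samples. In all, 18 groups of 4 or more rats were examined in this way, and chance flags about 1 in 20 groups. Without this rat the log2-fold change of Chrne with CTD was -0.70 (edgeR adjusted p = 0.0485). Mink1, the neighbour of Chrne, was also highest in this rat, at 86.6 CPM against 69.5 to 81.8 CPM in the other controls.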

How the results depend on the processing

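Counts of members, past a threshold or detected, stayed within 1.5 times the reported value in 57 of 60 recomputations. These used other normalizations, filters, tests or depth. Most reported counts of members past the threshold were 0, and most members had few reads. Such counts could hardly change, so the 57 of 60 are not a measure of stability. With libraries thinned, 2 rather than 3 members were counted in every library. The number of members past the threshold with CTD was 0 when only the groups compared were fitted and 0 with the replicate block. With IMZ + CTD it was 1 with the DESeq2 Wald test. Leaving out 1 rat at a time gave 0 to 2 members with CTD and 0 to 1 with IMZ + CTD. Without CTD replicate 1 the 1 member called was Chrna4, not Chrne, and without CTD replicate 3 both were called; Chrna4 rests there on 5 counts in 1 library. The Chrne fall with CTD kept its direction in all settings tried, with edgeR adjusted p from 0.00589 to 0.235 over the rats left out.

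The replicate block, which treats equal replicate numbers as pairs, gave Chrne with CTD -0.63 (edgeR adjusted p = 0.182). It turned the sign of Chrnb1 with THI + CTD (0.14), Chrne with THI (0.16) and Chrne with THI + IMZ (0.16), all far from the threshold. The labels do not say that a number marks a shared litter or day. Rats of the same number in different groups had a median r of 0.033 over 78 pairs, 16 of them over 0.1. For different numbers the median was -0.0061 over 326 pairs, 51 of them over 0.1. Thinning to the smallest library gave Chrne with THI + IMZ 0.024. Over the rats left out, sign changes occurred for Chrnb1 with THI (-0.067 to 0.60) and with CTD (-0.88 to 0.092), and for Chrne with THI (-0.057 to 0.11) and with THI + IMZ (-0.096 to 0.12). The cause of these shifts was not tested.

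Depth limits 6 of the 9 members, whose median count was 1 or 0, so that a few counts in 1 library can decide a call, as for Chrna4 with CTD.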

Other observations

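Receptors for GABA, glycine and serotonin belong to the same Cys-loop family. Of 25 of their genes, 20 had a median count of 0, and 1, Gabrr2 (the GABA receptor subunit rho 2), was counted in every library. Gabrr2 stood at 1.86 ± 0.756 CPM in the controls (SD, n = 8) and between 1.06 and 1.47 CPM on average in the treated groups. None of the 20 genes tested passed the threshold of the edgeR test in any of the 6 comparisons. Over all genes the share was 0.251% with IMZ and up to 12.7% with CTD. Only Gabrr2 had a median count of at least 10, so for the other genes a change could hardly have been called.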
